A study of Mus musculus with 4 samples.

Results

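Exon and 5' UTR peaks were the ATAC-seq peaks whose annotation in the deposited lists named a coding exon or the untranslated region ahead of the coding sequence. They were taken by that label alone from the 4 peak lists, and numbered 3265 of 120839 peaks. ATAC-seq marks open chromatin, DNA that the Tn5 transposase can reach and cut. The lists came from whole muscle of sedentary, wild type C57BL/6 mice (C57BL/6J in the study's methods), with 1 library each for the extensor digitorum longus (EDL), the quadriceps (Quad), the soleus (Sol) and the diaphragm (Dia). EDL and Quad are mostly fast and glycolytic, Sol is slow and oxidative, and Dia contracts throughout life. The labels call each library pooled, and how many animals went into each pool was not given in the sources used here. The study's methods describe male mice bought as young adults, and the labels give no age. No group carried a treatment or an altered allele.

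A gene's first exon begins at the transcription start site (TSS), and the 5' UTR is the transcribed stretch between that start and the first codon. Open chromatin at an active gene is centred on the promoter and reaches into the start of the transcribed sequence, so a peak placed in a first exon can be the downstream flank of a promoter. Open sites inside later coding exons are known too: some coding exons double as enhancers or hold CTCF sites, and a few carry the start of a shorter transcript.

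In the authors' annotation a promoter reached 1 kb ahead of a TSS and 100 bp past it, and that class took precedence over all others. An exon or 5' UTR peak therefore had its centre more than 100 bp downstream, or more than 1 kb upstream, of the nearest TSS. The smallest distance was 101 bp in the EDL, Quad, Sol and Dia lists, and this lower limit comes from the class definition. Peaks of a list all had the same width, which was 208 bp in EDL, 188 bp in Quad, 232 bp in Dia and 206 bp in Sol. Many coding exons are no longer than that, and a peak named for an exon often reached into an intron. The peak crossed an exon edge in 57.3% of EDL, 55.3% of Quad, 58.4% of Dia and 57.1% of Sol exon peaks, with the exon edges of the RefSeq annotation of GRCm38, the assembly behind mm10.

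The sequences across the exon edge show where such peaks lay. Each is 30 bases on the gene's strand of GRCm38 (RefSeq), with the 15 exonic bases in capitals and the 15 intronic bases in lower case, for exon peaks described further on, among them strong ones open in all 4 muscles, Mamstr, open in EDL and Quad, and the titin gene Ttn.
Bcat2, start of exon 11, chr7:45589291-45589320, plus strand: ttcgttgtctggcagTACGGAGCCAGTGCC
Carns1, end of exon 9, chr19:4169513-4169542, minus strand: GACTACGGACTGACGgtgggcggggcgcga
Slco2b1, start of exon 10, chr7:99664930-99664959, minus strand: ctcttctctgtctagTGCCCAGCCAGGGCC
Btd, start of exon 2, chr14:31662055-31662084, plus strand: gccggttcgtttcagATTTATGGTCTGCAT
Capn2, end of exon 6, chr1:182489950-182489979, minus strand: ACCGGAGCCGAGGAGgtacgccccctgcta
Fry, end of exon 52, chr5:150466427-150466456, plus strand: GAACACTCAGACCTTgtaagtaggaactct
Ppp1r12b, end of exon 5, chr1:134892143-134892172, minus strand: ATCCGGAACAAACTGgttagtgagcctgaa
Mamstr, end of exon 7, chr7:45643677-45643706, plus strand: CGGCTACCCAGCACGgtgagggcggggctg
Ttn, end of exon 187, chr2:76808505-76808534, minus strand: CTGCTCCAAACACCTgtacggctatttctg
The edge lay 4 bp from the peak centre in Fry and in Ttn, 6 bp in Btd, 8 bp in Mamstr and 13 bp in Bcat2. It lay 24 bp away in Capn2, 32 bp in Ppp1r12b, 50 bp in Carns1 and 71 bp in Slco2b1. Of 42 exon edges read in this way in the named exon peaks, 42 had the splice-site bases GT after an exon end or AG before an exon start. These bases check the annotation against its own genome sequence, and do not test the build of the peak files.

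Short motifs lay inside several members, and each of the following 30-base stretches shows one, in capitals, on the gene's strand of GRCm38 (RefSeq).
Jund 5' UTR, CRE, chr8:70698724-70698753, plus strand: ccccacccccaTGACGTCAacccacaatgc
Spi1 exon 5, YY1, chr2:91115250-91115279, plus strand: gacctaccagAAGATGGCGcgcgcgctgcg
Fry exon 52, AP-1, chr5:150466376-150466405, plus strand: gaggattccgaTGAGTCAtccgaggaggac
Capn2 exon 6 end, CTCF core, chr1:182489943-182489972, minus strand: ccgaggaggtaCGCCCCCTgctagcacgtg
Rel 5' UTR, AP-1, chr11:23770756-23770785, minus strand: tgcctggctgacTGACTCActgactgactg
Myl12a 5' UTR, ETS, chr17:71002195-71002224, minus strand: gcgagcggaggCCGGAAGTggccgtactgc
The CTCF core match in Capn2 lies just inside the intron, 31 bp from the peak centre. The match in Spi1 lies in its last coding exon, 29 bp from the centre. A match to letters is a description of the window, and binding was not measured here.

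EDL had 757 members among 30136 peaks, which was 2.51% (95% Wilson interval 2.34% to 2.69%). Quad had 1088 of 40337, or 2.70% (2.54% to 2.86%), and Sol had 773 of 28784, or 2.69% (2.50% to 2.88%). Dia had 647 of 21582, or 2.998% (2.78% to 3.23%), the highest share from the shortest list. The 4 shares lay close together, and those of EDL and Dia had intervals that did not overlap. All intervals here cover counting error only, since each muscle had a single library and no spread between animals could be measured. No p-value between muscles was computed for that reason.

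The mix of the classes differed more than their sum. Exon peaks numbered 418 in EDL, 651 in Quad, 303 in Dia and 415 in Sol. The 5' UTR peaks numbered 339 in EDL, 437 in Quad, 344 in Dia and 358 in Sol, so their number changed less than the list length did. They made up 44.8% of the members in EDL (41.3% to 48.3%), 40.2% in Quad (37.3% to 43.1%), 53.2% in Dia (49.3% to 57.0%) and 46.3% in Sol (42.8% to 49.8%). Quad was lowest and Dia highest, with intervals apart. Quad was also the longest list and Dia the shortest, and this mix was not computed at equal list lengths. A difference between muscles and one of list length cannot be told apart here.

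Set against the share of the genome in each class, 5' UTR peaks were far more frequent than their footprint, and exon peaks hardly more so. On the RefSeq annotation, 5' UTRs outside promoters cover 0.0952% of the assembled genome and coding exons 1.27%. The 5' UTR share of peaks was 11.8 times that of the genome in EDL, 11.4 in Quad, 16.7 in Dia and 13.1 in Sol. For coding exons the ratio was 1.09 in EDL, 1.27 in Quad, 1.11 in Dia and 1.14 in Sol. Promoters reached 25.8 in EDL, 21.5 in Quad, 34.7 in Dia and 26.8 in Sol, and introns 0.944 in EDL, 1.03 in Quad, 0.732 in Dia and 0.910 in Sol. Coding exons therefore stood close to introns on this scale, and the 5' UTR between coding exons and promoters.

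Most 5' UTR peaks lay in the first exon of their transcript, whereas exon peaks were spread along the gene. The first exon held 88.8% of the 5' UTR peaks in EDL, 89.0% in Quad, 90.4% in Dia and 91.1% in Sol. A second exon that was not the last held between 7.54% in Sol and 9.15% in Quad, where a non-coding first exon puts the start codon further downstream. Among exon peaks, the first exon held 25.6% in EDL (21.6% to 30.0%), 27.5% in Quad (24.2% to 31.1%), 42.6% in Dia (37.1% to 48.2%) and 29.6% in Sol (25.4% to 34.2%). Dia stood apart from the other lists in this share. When the 20000 highest-scored peaks of each list were used, the share was 30.3% in EDL and 36.9% in Quad, nearer to Dia.

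Internal exons beyond the second were the commonest place for an exon peak in EDL, with 195 peaks (46.7%), in Quad, with 297 (45.6%), and in Sol, with 180 (43.4%). In Dia they held 90 peaks (29.7%), fewer than the first exon. Last exons of several held 21.1%, 19.2%, 18.6% and 19.5% of exon peaks in EDL, Quad, Sol and Dia, a share that hardly changed. Genes with a single exon held 5.50% in EDL, 5.53% in Quad, 5.61% in Dia and 5.30% in Sol. Median scores at last exons were not below those at other internal exons. The median score percentile was 39.6 against 34.3 in EDL, 41.8 against 40.0 in Quad, 41.6 against 34.0 in Sol and 34.1 against 29.6 in Dia.

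**Figure D1:**
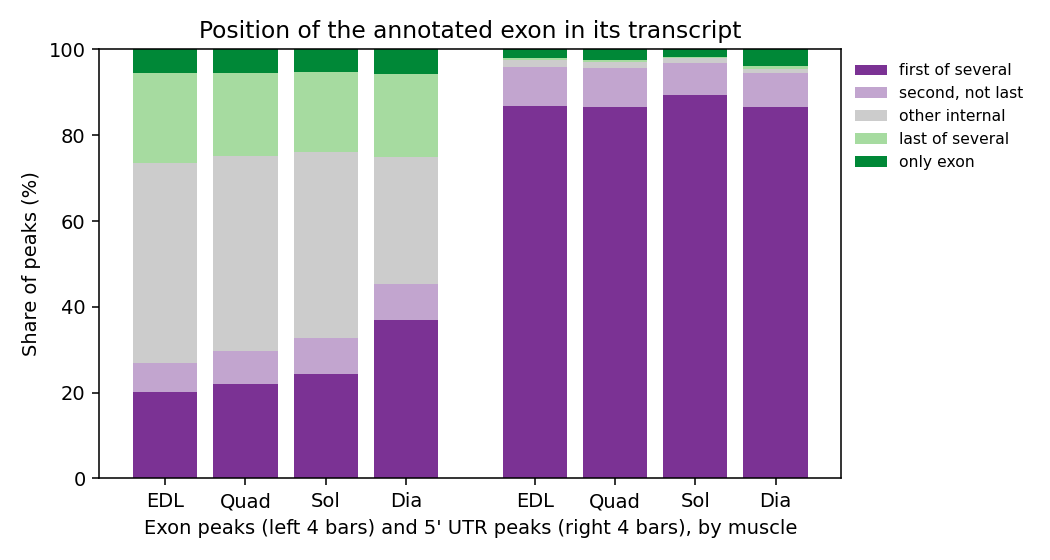
Position of the annotated exon within its transcript, as a share (%) of exon peaks (left 4 bars) and 5' UTR peaks (right 4 bars) of each muscle. First exons hold between 88.8% and 91.1% of 5' UTR peaks, and between 25.6% and 42.6% of exon peaks once genes with a single exon are counted with them.

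The distance to the nearest TSS split the members into a near and a far set. The median absolute distance of 5' UTR peaks was 200 bp in EDL (95% interval of the median 181 to 215), 202 bp in Quad (188 to 218), 199.5 bp in Dia (185 to 213) and 189 bp in Sol (180 to 205). The 4 medians lay within each other's intervals. For exon peaks the median was 8124.5 bp in EDL (6299 to 9880), 7487 bp in Quad (6083 to 9085), 1562 bp in Dia (805 to 3288) and 6180 bp in Sol (4062 to 9382). Dia was the only list with an exon median below 4 kb, and its interval met none of the others. Dia was also the shortest list, and these medians were not recomputed at equal list lengths.

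Within 1 kb of a TSS lay 114 of the exon peaks in EDL (27.3%), 194 in Quad (29.8%), 138 in Dia (45.5%) and 131 in Sol (31.6%). Between 91.7% of 5' UTR peaks in EDL and 93.6% in Dia and Sol lay that close. Beyond 10 kb lay 44.98% of exon peaks in EDL, 43.9% in Quad, 31.0% in Dia and 44.3% in Sol. Intron peaks were further out still, with 72.4% beyond 10 kb in EDL. The number of exon peaks near a TSS thus ran only from 114 to 138 in EDL, Sol and Dia, and the number of far ones was lowest in Dia.

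**Figure D2:**
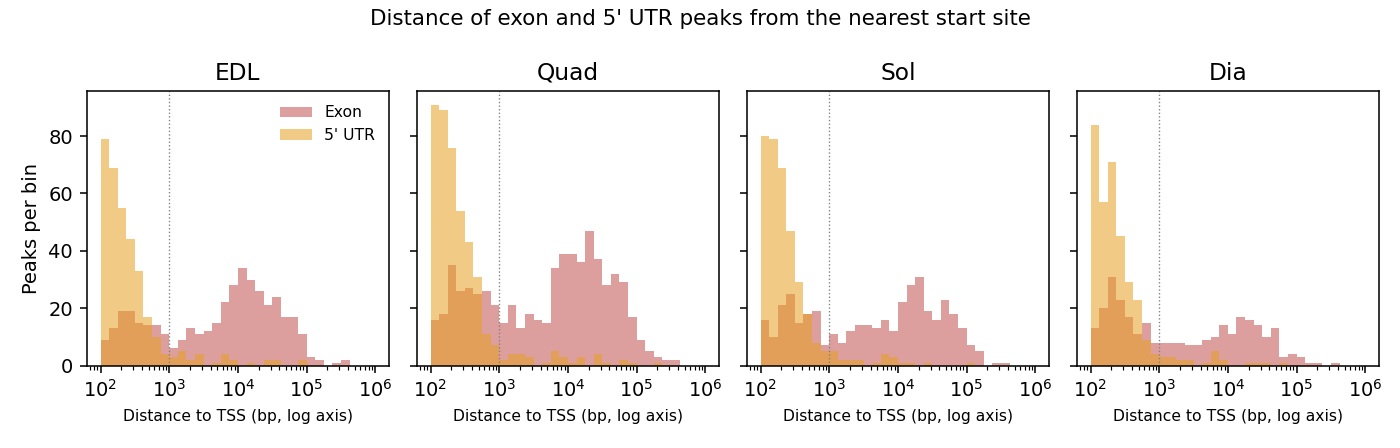
Number of exon and 5' UTR peaks by absolute distance to the nearest TSS (bp, log axis) in each muscle; the dotted line marks 1 kb. Almost all 5' UTR peaks lie left of the line, and exon peaks fall into a near group and a broader group around 10 kb and beyond, which is smallest in Dia.

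Most peaks near the start came without a separate promoter peak of the same gene. Of the exon peaks within 1 kb, the nearest gene also had a promoter peak in the same list in 17.5% of cases in EDL, 34.0% in Quad, 9.42% in Dia and 16.0% in Sol. Of 5' UTR peaks it did so in 10.6% in EDL, 15.2% in Quad, 6.83% in Dia and 10.1% in Sol. In the other genes no promoter peak was called in that list. Centres within a list were never closer than 341 bp in EDL, 290 bp in Quad, 335 bp in Dia and 316 bp in Sol. The median 5' UTR peak lay 189 to 202 bp from a TSS, closer than any such pair. The spacing therefore limits what these shares can show, and no share for other genes was computed. Quad had the narrowest spacing, the most peaks and the highest shares. Sol had a narrower spacing than EDL and lower shares. The cause of these differences was not tested.

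The score of a peak is HOMER's tag count scaled to the library, and is compared here as a percentile within the peak's own list. The weakest peak of a list held 34 tags in EDL, 25 in Quad, 36 in Dia and 32 in Sol, inferred from the steps between scores. The median member held 70 tags in EDL, 53 in Quad, 78 in Dia and 74 in Sol. These depths support a rank within a list, and no change in signal between muscles was tested.

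Scores of 5' UTR peaks ranked above those of exon peaks in each of the 4 lists. The median percentile of 5' UTR peaks was 59.5 in EDL (54.4 to 64.5), 67.4 in Quad (64.0 to 70.5), 62.9 in Dia (59.98 to 66.2) and 59.4 in Sol (55.3 to 65.3). That of exon peaks was 39.6 in EDL (34.3 to 43.2), 43.4 in Quad (40.0 to 46.5), 41.7 in Dia (36.8 to 46.4) and 37.0 in Sol (34.6 to 42.7). No interval of the 5' UTR medians met one of the exon medians. Promoter peaks were higher still, at 76.3 in EDL, 81.3 in Quad, 74.1 in Dia and 75.7 in Sol, and intron peaks stood at 39.6 in EDL, 41.8 in Quad, 34.1 in Dia and 39.3 in Sol.

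Scores of exon peaks fell with distance. Exon peaks up to 300 bp from a TSS had a median percentile of 49.7 in EDL, 59.0 in Quad, 49.7 in Dia and 54.5 in Sol. Beyond 10 kb it was 34.3 in EDL, 39.1 in Quad, 24.2 in Dia and 30.6 in Sol. At the same distance the classes still differed close to the start: promoter peaks between 100 and 300 bp upstream of a TSS had medians of 84.3 in EDL, 87.1 in Quad, 81.9 in Dia and 83.1 in Sol. Up to 300 bp the intervals of exon and intron peaks overlapped in each list. Between 300 and 1000 bp, exon medians were 44.3 in EDL, 48.0 in Quad, 47.0 in Dia and 44.8 in Sol. Intron medians there were higher, at 59.5 in EDL, 63.0 in Quad, 60.7 in Dia and 61.0 in Sol. The intervals were apart in EDL, Quad and Sol and overlapped in Dia. Beyond 10 kb, exon and intron peaks were alike in EDL (34.3 and 37.0) and Quad (39.1 and 38.2), and exon peaks were lower by a few percentile points in Sol (30.6 against 35.8) and Dia (24.2 against 29.6), where the intervals overlapped.

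**Figure D3:**
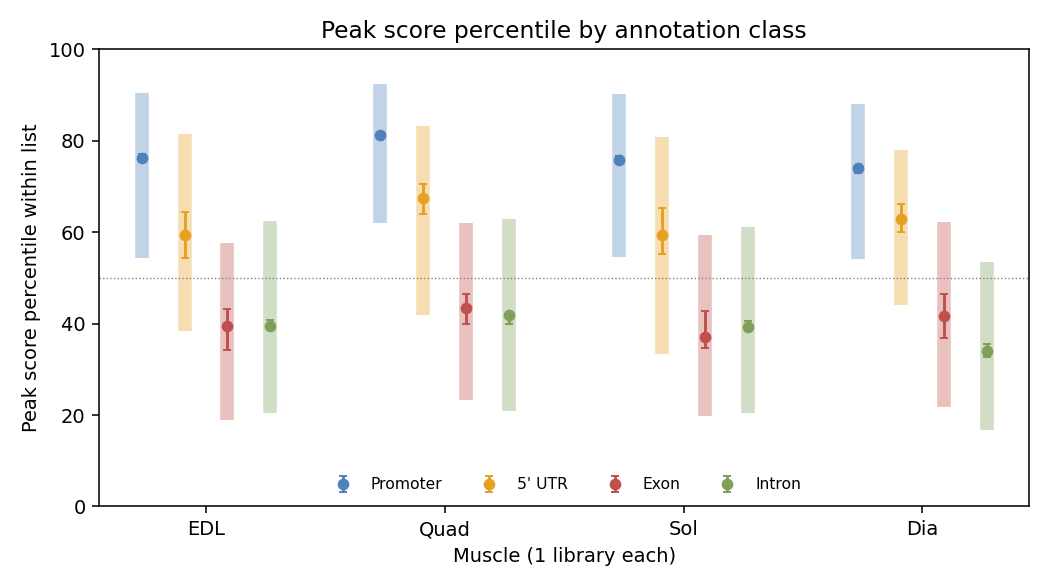
Score percentile within each list for promoter, 5' UTR, exon and intron peaks: points are medians, thin error bars their 95% order-statistic intervals, and wide pale bars the quartiles. The 5' UTR medians, between 59.4 and 67.4, lie between the promoter medians and the exon medians in each of the 4 muscles.

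Peaks of the 4 lists that overlapped by at least 1 bp were merged into regions, and a region counted as open in each muscle whose list had a peak in it. Members were open in all 4 muscles about as often as other peaks: 52.3% of members against 48.1% of all EDL peaks, 34.6% against 36% in Quad, 52.1% against 50.4% in Sol and 63.8% against 67.2% in Dia. Members found in no other list were 10.2% in EDL, with 12% of all its peaks, 33.8% in Quad, with 30.3%, 17.5% in Sol, with 16.1%, and 11.9% in Dia, with 11.5%. Against the peaks that are not members, the difference in the share open in all 4 was 4.31 percentage points in EDL (Newcombe 95% interval 0.71 to 7.89) and 1.81 in Sol (-1.76 to 5.36). It was -1.43 points in Quad (-4.24 to 1.48) and -3.44 points in Dia (-7.27 to 0.22). Taken as a whole, the members were near the background, and for the share open in all 4 EDL alone had a difference whose interval left out 0. For members found in no other list, Quad had a difference of 3.61 points whose interval (0.82 to 6.51) left it out.

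That average hid a split between the classes. Exon peaks were open in all 4 muscles in 36.8% of cases in EDL, 22.6% in Quad, 55.4% in Dia and 37.6% in Sol. The 5' UTR peaks reached 71.4% in EDL, 52.4% in Quad, 71.2% in Dia and 69.0% in Sol. In each list the 5' UTR share was higher, with intervals apart. This comparison does not hold distance constant: most 5' UTR peaks lay within 1 kb of a TSS, and most exon peaks did not. With a reciprocal overlap of 50% the shares fell to 21.5% in EDL, 11.2% in Quad, 28.4% in Dia and 21.2% in Sol for exon peaks and to 46.9% in EDL, 34.3% in Quad, 42.7% in Dia and 44.1% in Sol for 5' UTR peaks. With every list shortened to its 20000 strongest peaks, the share for Quad exon peaks was 38.1%, still the lowest of the 4 lists, which then lay between 38.1% and 44.9%.

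Exon peaks up to 300 bp from a TSS were shared more often than those further out. They were open in all 4 muscles in 62.7% of cases in EDL, 45.7% in Quad, 71.2% in Dia and 69.1% in Sol. The shares for intron peaks at that distance were 71.2% in EDL, 48.6% in Quad, 63.8% in Dia and 65.5% in Sol. Beyond 10 kb exon peaks reached 30.9% in EDL, 17.5% in Quad, 54.3% in Dia and 32.1% in Sol, and intron peaks 29.1% in EDL, 20.1% in Quad, 53.5% in Dia and 31.4% in Sol. Between 300 and 1000 bp the exon peaks stood at 40% in EDL, 19.0% in Quad, 44.8% in Dia and 31.7% in Sol, which in Sol and Dia was below their share beyond 10 kb, with overlapping intervals. Each of these differences between exon and intron peaks had an interval that included 0. At that middle distance, 5' UTR peaks exceeded intron peaks by 24.0 points in EDL (11.8 to 34.9), 11.5 in Quad (1.84 to 21.9) and 22.7 in Sol (9.78 to 34.1), whereas Dia showed 3.19 points with an interval from -9.39 to 15.0.

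**Figure D4:**
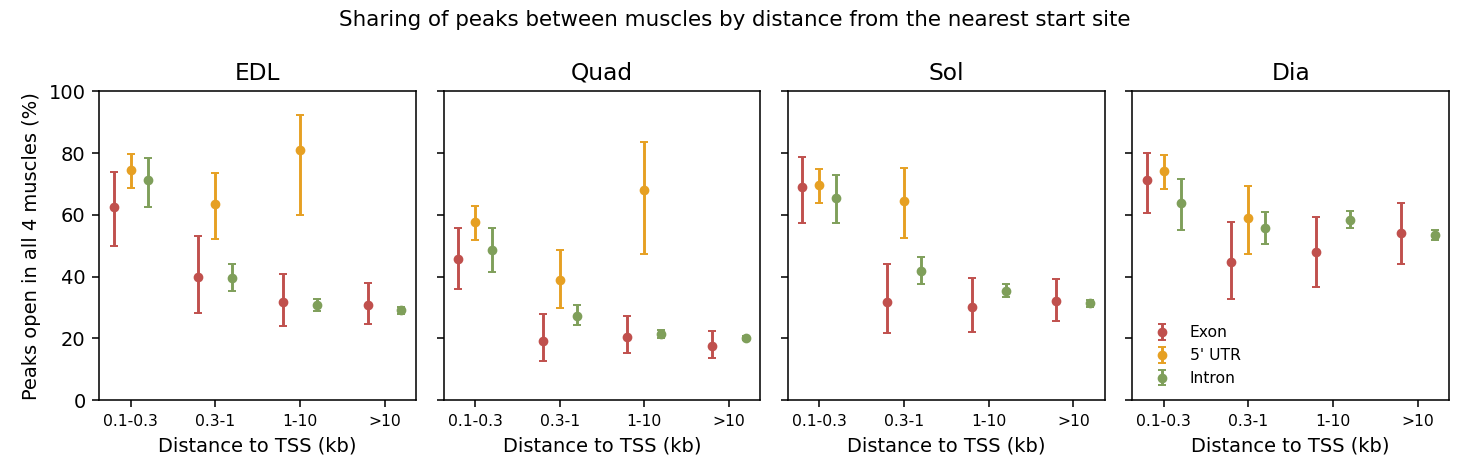
Share (%) of exon, 5' UTR and intron peaks whose region was open in all 4 muscles, by distance from the nearest TSS, with 95% Wilson intervals; classes with under 20 peaks in a bin are not drawn. Beyond 10 kb, exon and intron peaks lie together in each muscle, at 30.9% and 29.1% in EDL for example.

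The class of a region could change between lists, because each list placed its own peak centres. Where an exon peak overlapped a peak of another list, that peak was also an exon peak in 64.5% (Dia peaks in the Quad list) to 78.1% of cases (Sol peaks in the EDL list). It was an intron peak in 13.0% to 18.1%. The partner of a 5' UTR peak was a 5' UTR peak in 69.0% to 78.1% of cases and a promoter peak in 16.9% to 26.2%. Of the 647 member regions open in all 4 muscles, 231 (35.7%) held exon or 5' UTR peaks alone, 314 (48.5%) also held a promoter peak and 110 (17.0%) an intron peak.

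The 3265 members fell into 1844 merged regions of 53883. The commonest patterns were open in all 4 muscles, with 647 regions (35.1% of member regions, against 26.9% of all regions), and open in Quad alone, with 368 (19.96% against 22.7%). Open in EDL and Quad alone were 123, and in Sol and Dia alone 23, which were 6.67% and 1.25% of the member regions. Among all regions these patterns made up 8.05% and 1.20%. A region counted as a member region if any list had a member in it, so regions with peaks in more lists could qualify more easily. These region shares therefore lean towards shared patterns, and the shares per peak given above do not have this bias. Percentiles of the regions shared by a pair of lists rose and fell together, with a Spearman rho between 0.822 (EDL and Dia, 740 regions) and 0.845 (EDL and Quad, 945 regions). Over all shared regions rho ran from 0.832 to 0.864. These are correlations across regions, which are not replicates.

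Some members found in a single list had a peak of another list a short way off. Of the exon peaks within 1 kb of a TSS that were found in Quad alone, 46 of 68 (67.6%) had a peak of another list with its centre within 1 kb. In Sol and Dia it was 13 of 21 (61.9%) and 15 of 19 (78.9%). For 5' UTR peaks found in a single list, it was 11 of 16 in EDL, 41 of 84 in Quad, 10 of 24 in Sol and 10 of 20 in Dia. Far from a start this was rare. Of exon peaks over 1 kb from a TSS that were found in a single list, 15.4% in EDL, 9.18% in Quad, 11.1% in Dia and 17.0% in Sol had such a neighbour, with median gaps between 7313 and 9421 bp. Intron peaks found in a single list had such a neighbour in 62.7% to 73.3% of cases within 1 kb of a TSS and in 10.7% to 17.3% further away, so the difference with distance was not particular to the members.

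The transcript named in the annotation was found in RefSeq for at least 99.3% of the members of each class and list. The centre of an exon peak lay in the coding sequence of that transcript in 98.3% to 99.4% of cases. The gene that held the exon was often a different one from the gene with the nearest TSS. For exon peaks the genes differed in 34.5% of cases in EDL (30.1% to 39.2%), 29.6% in Quad, 21.9% in Dia and 27.7% in Sol. For 5' UTR peaks they differed in 1.17% to 1.83%. Each member is therefore described here by the gene whose exon it lies in.

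Exon and 5' UTR peaks lay in 1690 of 20923 protein-coding genes on the autosomes and X, or 8.08%. Of the genes holding a member, 1553 had 1 region, 126 had 2 and 11 had 3. The share of genes holding an exon peak rose with the length of the coding sequence, from 2.30% of genes with up to 1 kb of it (2.001% to 2.65%) to 14.3% of those with over 4 kb (12.5% to 16.4%). For 5' UTR peaks the rise was smaller, from 2.16% to 4.93%. An exon over 1 kb held 29.6% of exon peaks in EDL (25.4% to 34.2%) and 27.6% in Quad (24.2% to 31.1%). It held 26.6% in Sol (22.5% to 31.1%) and 27.2% in Dia (22.4% to 32.5%). Such exons hold 24.1% of coding bases, a share just below the intervals of EDL and Quad and inside those of Sol and Dia.

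Of 1044 genes with an exon peak 7 had it in 3 regions, among them Cct5, Dip2b, Lrp6, Macf1, Plekha5 and Syne1, and 70 more had 2 regions. Several encode very large proteins. Macf1 links microtubules to actin, Syne1 ties the nuclear envelope to the cytoskeleton, and Lrp6 is a Wnt co-receptor. Syne1 had a peak at exon 55 of 146 in all 4 muscles, at percentiles of 53.4 in EDL, 55.7 in Quad, 26.5 in Dia and 44.8 in Sol, and weaker ones at exons 47 and 43. Lrp6 exon 4 had a peak at percentile 85.7 in EDL, 80.8 in Sol and 44.1 in Dia, and Quad had an intron peak at percentile 83.3 with its centre 217 bp away. Cct5, a subunit of the chaperonin that folds actin and tubulin, had 3 weak exon peaks, at percentiles of 14.95 and 25.8 in Quad and 35.8 in Sol.

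The strongest 5' UTR peaks were open in all 4 muscles. For named regions, the percentile given for a muscle is that of its best peak in the region, whatever its label there. Zfp574, a zinc finger gene, had the highest-scored 5' UTR peak of each list, in exon 2 of 3, at percentiles of 99.6 in EDL, 99.8 in Quad, 99.8 in Dia and 99.8 in Sol. Its Quad peak lay at chr7:25077069-25077257, 356 bp from the nearest start. Laptm4a, which encodes a lysosomal membrane protein, had 99.4 in EDL, 99.3 in Quad, 98.1 in Dia and 98.7 in Sol at 609 to 614 bp from its start. P4hb, the protein disulphide isomerase subunit of collagen prolyl hydroxylase, had 99.2 in EDL, 99.0 in Quad, 99.4 in Dia and 99.2 in Sol, where EDL and Quad labelled the peak a promoter peak. Tnrc6c, of the microRNA silencing complex, was the third among the peaks labelled 5' UTR in EDL at 99.1, and Gpbp1, a transcription factor gene, the second in Quad at 99.4. Tmem11, a mitochondrial inner membrane protein, was the third in Sol at 99.1, with 96.1 in EDL, 98.2 in Quad and 93.0 in Dia.

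The strongest exon peaks came from first exons and from the far ends of genes alike. Acin1, which encodes a splicing-associated protein, had a peak in exon 1 of 19 at percentiles of 97.9 in EDL, 97.9 in Quad, 94.0 in Dia and 95.3 in Sol. Carns1, the enzyme that makes the muscle dipeptide carnosine, had a peak at exon 9 of 10 near the 3' end of the gene, 5901 bp from the nearest start in Quad. It was at 98.3 in EDL, 97.8 in Quad, 97.4 in Dia and 98.1 in Sol, and a GENCODE transcript start lay 27 bp from its centre in Dia. Spaca6, a gene known from sperm, was open at exon 8 of 9 at 95.4, 98.7, 97.2 and 94.7 in EDL, Quad, Sol and Dia. Ocel1 exon 1 led the exon peaks of Sol at 97.8, with 97.4, 97.8 and 96.7 in EDL, Quad and Dia. Among the peaks that the EDL list itself labelled as exon, Acin1 was followed by Iba57 exon 1 at 93.2 and Rilp exon 3 at 92.9, genes of iron-sulphur cluster assembly and of late endosome transport. Each of these regions was open in all 4 muscles. The lists differed in their labels for some of them: the Carns1 peak was an exon peak in Quad and Dia, the Spaca6 peak in Dia alone and the Ocel1 peak in Sol alone.

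Some exon peaks were open in all 4 muscles and lay over 10 kb from every TSS in the files. The 8 with the highest minimum percentile began with Bcat2, which encodes the mitochondrial aminotransferase for branched-chain amino acids. The peak in its last exon was at 99.1 in EDL, 98.3 in Quad, 96.9 in Dia and 98.7 in Sol, although the Quad list alone called it an exon peak. Slco2b1, an organic anion transporter gene, had a peak at exon 10 of 14, 30936 bp from the start in Sol, at 89.7 in EDL, 94.5 in Quad, 91.7 in Dia and 95.1 in Sol. A GENCODE transcript starts 59 bp from that peak's centre in Sol. Btd, which encodes biotinidase, was at 85.7 in EDL, 87.7 in Quad, 79.4 in Dia and 91.2 in Sol, at exon 2 of 4. Lpar5, a lysophosphatidic acid receptor gene, was at 87.2 in EDL, 77.9 in Quad, 74.1 in Dia and 85.6 in Sol in its last exon. The peak of Fry, at exon 52 of 61, had 80.7 in EDL, 88.7 in Quad, 73.5 in Dia and 84.0 in Sol.

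Capn2, the catalytic subunit of the calcium-dependent protease calpain 2, was open at exon 6 of 21 at percentiles of 74.9 in EDL, 84.7 in Quad, 73.0 in Dia and 81.6 in Sol. A GENCODE start lay 1 to 40 bp from its peak centres. Plxnd1, a semaphorin receptor gene, was at 71.3 in EDL, 85.0 in Quad, 70.4 in Dia and 80.8 in Sol, at exon 30 of 36. Ppp1r12b, a subunit of myosin phosphatase made in striated muscle, was at 82.4 in EDL, 75.8 in Quad, 68.7 in Dia and 82.3 in Sol, at exon 5 of 24, and the nearest GENCODE start was 45754 bp away in Sol. The lists differ in length and in their weakest peak, so small differences in percentile between muscles are not read here.

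Regions open in EDL and Quad alone included muscle genes. Mylk2, the skeletal myosin light chain kinase, had a peak at exon 3 of 12 at percentiles of 91.0 in EDL and 90.3 in Quad. Sol had an intron peak of Mylk2 with its centre 838 bp away, at 90.3, and the nearest Dia peak was 48780 bp off. Mamstr, a MEF2 coactivator gene, was open at exon 7 of 10 at 83.4 in EDL and 88.7 in Quad, and the nearest peaks of Sol and Dia were 4814 and 3855 bp away. Cebpb, a single-exon transcription factor gene, had 82.4 in EDL and 83.6 in Quad, and the nearest Sol and Dia peaks were 7318 and 9013 bp away. Cyren, at 74.9 and 84.0, had its nearest Sol and Dia peaks 3590 and 3572 bp away. Rel, an NF-kB subunit gene, had a 5' UTR peak at 84.8 in EDL and 89.6 in Quad, and in Sol and Dia a promoter peak stood 315 and 357 bp away.

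The 5 strongest members open in Sol and Dia alone were Vdac1, Upf3a, Leng9, Ssu72 and Capn5, and had a peak of the same gene close by in at least 1 of the other lists. Vdac1, the main channel of the outer mitochondrial membrane, had a 5' UTR peak at 93.7 in Sol and 89.5 in Dia. EDL and Quad had promoter peaks of Vdac1 at 85.5 and 90.6, with their centres 208 and 306 bp away. Upf3a, of nonsense-mediated mRNA decay, had an exon 1 peak at 90.3 in Sol with 79.8 in Dia, and promoter peaks 239 and 251 bp away in EDL and Quad. Leng9, Ssu72 and Capn5 also had a peak of the same gene within 606 bp in Quad, and Leng9 and Ssu72 in EDL. For Capn5, the nearest EDL peak was 6566 bp away. The other named regions of this pattern, in Cd36, Emcn, Macf1 and Myh7b, had their nearest EDL and Quad peaks 5118 to 20812 bp away.

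Several of the strongest members found in a single list were of the same kind. Ndufaf3 in EDL, Stard7 in Quad, Sema6d in Sol and Myl12a in Dia had percentiles of 87.2, 88.3, 77.0 and 87.8, and each of the other lists had a promoter peak of the same gene within 433 bp. Others named by rank in a single list were Zbtb1 in EDL, Mynn and Ccr10 in Quad, Crlf2 and 1700066B19Rik in Sol, and Fez2 and Myc in Dia. Myc had a 5' UTR peak in Dia alone at 71.9, and intron peaks of Myc 1552 to 1699 bp away in the other lists.

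Members also lay in genes of known muscle and non-muscle roles, listed by function, and 8.08% of all protein-coding genes is the share to read these against. Sarcomere genes held a member in 9 of 40 (22.5%), regulators of muscle transcription in 7 of 42 (16.7%) and Hox genes in 6 of 39 (15.4%). Immediate early and stress genes had 5 of 38 (13.2%) and metabolic genes 4 of 40 (10%). None of the 25 calcium handling and excitation genes held a member, although 12 to 15 of them had a promoter peak in a list. The median coding length was 2694 bp for the sarcomere list and 1224 bp for all genes. No test was made between the lists and other genes.

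**Figure D5:**
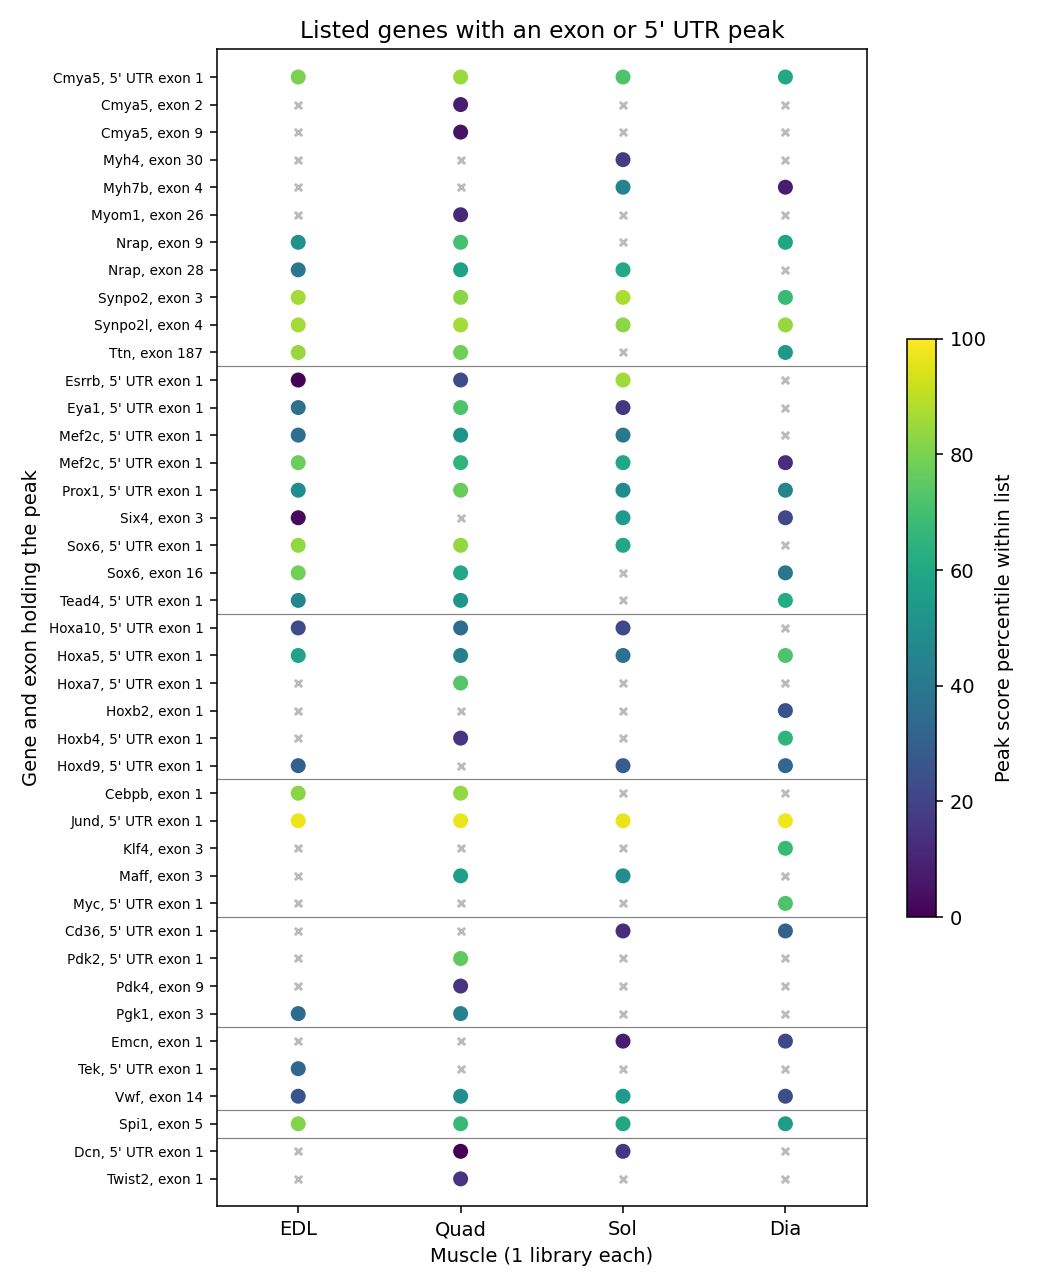
Score percentile, by colour, of the regions with an exon or 5' UTR peak in genes described from the functional lists, 1 column per muscle; a dot shows the best peak of that list in the region whatever its class, a cross shows that no peak was called there, and lines part the lists. Jund is bright in all 4 muscles, at 96.5 to 97.9, and Myh4, Myom1, Hoxb2 and Tek have a dot in 1 muscle only.

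In the sarcomere list, 3 regions were open in all 4 muscles. Synpo2l, an actin-binding protein of the Z-disc, had a peak in its last exon at 86.4 in EDL, 86.5 in Quad, 84.0 in Dia and 82.7 in Sol. Synpo2, its relative, had 86.4 in EDL, 82.5 in Quad, 67.5 in Dia and 87.1 in Sol at exon 3 of 5. The first exon of Cmya5, which encodes myospryn, had a 5' UTR peak at 79.96 in EDL, 85.0 in Quad, 59.98 in Dia and 72.1 in Sol. Ttn, the titin gene, was open around exon 187 of 313 at 84.8 in EDL, 78.4 in Quad and 54.2 in Dia, labelled an exon peak in Dia alone. The nearest Sol peak was 117444 bp away. Nrap, a myofibril assembly factor, was open at exon 28 in EDL, Quad and Sol at 39.6, 56.8 and 60.3, and at exon 9 in EDL, Quad and Dia at 50.7, 70.5 and 59.2.

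Myosin genes held weaker peaks. Myh7b, a slow-type myosin, had a peak at exon 4 of 42 in Sol at 44.8 and in Dia at 8.04, and the nearest EDL and Quad peaks were 20812 and 20666 bp away. Myh4, the fast IIb myosin, had a peak at exon 30 of 40 in Sol alone, at 17.6. EDL and Quad had a Myh4 promoter peak at percentiles 84.3 and 76.4, with centres 17049 and 17002 bp away. The sarcomeric myosin genes share near-identical exon sequence, so reads at Myh4 exon 30 could come from a neighbouring myosin gene, and this value is uncertain. Myom1 exon 26 was open in Quad alone at 11.6.

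Regulators of muscle transcription held peaks mainly in the 5' UTR. Esrrb, an oestrogen-related receptor gene, had a 5' UTR peak at 85.6 in Sol, 23.4 in Quad and 0.654 in EDL, and Dia had a promoter peak 500 bp away at 40.5. Eya1, a transcriptional coactivator, had 71.9 in Quad, 37.0 in EDL and 16.1 in Sol, and the nearest Dia peak was 649211 bp away. Sox6, a repressor of slow fibre genes, had a 5' UTR peak at 84.0 in EDL, 83.6 in Quad and 59.4 in Sol, and the nearest Dia peak was 9405 bp away. A peak in its last exon stood at 78.4 in EDL, 60.1 in Quad and 39.2 in Dia, and Sol had a 3' UTR peak 3914 bp away at 84.8. Prox1, a slow-fibre regulator, was open in all 4 muscles at 48.7 in EDL, 76.9 in Quad, 45.3 in Dia and 48.0 in Sol. Mef2c had 5' UTR peaks at 2 alternative first exons, of which the one open in all 4 muscles fell from 77.6 in EDL to 13.2 in Dia. Six4 exon 3 stood at 54.5 in Sol, 21.7 in Dia and 2.97 in EDL, and Tead4 at 46.6 in EDL, 52.1 in Quad and 61.4 in Dia.

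Hox genes differed between the limb muscles and the diaphragm at some members. Hoxa10, a posterior gene, had a 5' UTR peak in the limb muscles at 22.3 in EDL, 34.4 in Quad and 21.9 in Sol, and the nearest Dia peak was 36007 bp away. Hoxb2 and Hoxb4, anterior genes, had 24.96 and 64.9 in Dia. Hoxb2 was open in Dia alone, and Hoxb4 in Dia and, at 14.95, in Quad. Hoxa5 was open in all 4 muscles and highest in Dia, at 71.9 against 57.9 in EDL, 43.4 in Quad and 37.0 in Sol. Hoxa7 was open in Quad alone at 73.3, and Hoxd9 in EDL, Sol and Dia at 30.1, 29.3 and 32.7. Neither of these parted the limb muscles as a group from the diaphragm. Each muscle is 1 library, so position in the body and library cannot be told apart.

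Among immediate early genes, Jund had a 5' UTR peak at 97.1 in EDL, 97.0 in Quad, 97.9 in Dia and 96.5 in Sol. Its gene has a single exon, and the peak lay 1033 to 1113 bp from the annotated start, with the printed CRE inside it. Klf4 exon 3 was open in Dia alone at 67.5, and the other lists had a Klf4 promoter peak 2079 to 2107 bp away. Maff exon 3 was open in Quad at 55.7 and Sol at 49.0. In metabolism, Cd36, the fatty acid transporter, had a 5' UTR peak in Sol at 13.0 and Dia at 31.1, and its nearest EDL and Quad peaks were 5120 and 5118 bp away. Pgk1, of glycolysis, had an exon 3 peak in Quad at 43.4. The EDL peak in that region, at 34.3, was not labelled exon or 5' UTR. Pdk4 and Pdk2, kinases that inhibit pyruvate dehydrogenase, held peaks in Quad alone, at 14.95 and 75.8. Their promoters were open in all of the other lists.

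Muscle tissue holds other cell types, and which cells a peak came from cannot be told apart here. Promoter peaks were present for 7 of 9 muscle fibre marker genes in EDL, 8 in Quad, 5 in Dia and 6 in Sol. Of 15 endothelial genes 8 had one in EDL, 11 in Quad, 4 in Dia and 9 in Sol. Of 14 fibroblast and tendon genes 2 had one in EDL, 4 in Quad, 0 in Dia and 1 in Sol. Of 12 leukocyte genes 1 had a promoter peak, in Dia, and of 8 neural and Schwann genes 1 or 2 had. The share of all protein-coding genes with a promoter peak is not given here. These counts therefore have no background and are not read as the presence or lack of a cell type. Members in these lists were Vwf, Tek and Emcn (endothelial), Spi1 (leukocyte), and Dcn and Twist2 (fibroblast and tendon). Spi1, a myeloid transcription factor gene, had a peak in its last exon at 81.4 in EDL, 67.4 in Quad, 55.1 in Dia and 59.4 in Sol. Its nearest start, 2851 to 2967 bp downstream, is that of Mybpc3, a cardiac sarcomere gene, and the part of either gene in this peak was not tested. Vwf exon 14 was open in all 4 muscles at 25.6 in EDL, 49.4 in Quad, 23.4 in Dia and 54.5 in Sol.

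Exon peaks, and 5' UTR peaks within 1 kb of a TSS, were richer in G and C than intron peaks at the same distance. In windows of 200 bp at the peak centre, the mean GC content of exon peaks within 1 kb of a TSS was 68.3% ± 6.86 (SD over 114 peaks) in EDL, and of 5' UTR peaks 65.2% ± 7.82 (311 peaks). Introns at that distance had 61.7% ± 8.35. Over 1 kb from a TSS, exon peaks had 57.0% ± 7.28 and intron peaks 51.4% ± 5.74. Windows with at least 50% GC and a CpG ratio, observed over expected, of at least 0.6 were called CpG-rich. They made up 88.6% of near and 21.7% of far exon peaks in EDL, against 53.0% and 2.71% of intron peaks. The far exon share was 22.3% in Quad, 37.0% in Dia and 24.6% in Sol. Of all peaks, CpG-rich windows made up 30.0% in EDL, 25.7% in Quad, 40.7% in Dia and 31.6% in Sol, above the far exon share in each list. The mean GC content of all EDL peaks was 55.8%. Exons without a peak were not measured, so how much of the GC content of exon peaks is the composition of coding sequence was not tested. Repeat-masked bases filled over 50% of the window in 0 members in EDL and in 1 to 3 in the other lists.

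Motif letters were searched on both strands of these windows. The SP/KLF box GGGGCGGGG was present in 12.1% of 5' UTR peaks in EDL, 12.8% in Quad, 13.7% in Dia and 11.7% in Sol, against 18.5% to 19.2% of promoter peaks and 6.31% to 9.59% of all peaks. The YY1 letters AAGATGGCG were in 2.06% to 2.36% of 5' UTR peaks and in 2.06% to 5.07% of exon peaks within 1 kb, against 0.824% to 1.45% of all peaks and 2.56% to 3.01% of promoter peaks. The exon shares rest on 4 to 7 peaks a list. YY1 sites are known just downstream of the start in many genes, and the letters contain a start codon. The AP-1 letters TGANTCA were in 5.99% to 7.24% of exon peaks over 1 kb from a TSS and in 11.2% to 11.9% of intron peaks that far. The CTCF core AGGGGGCG, which overlaps GC boxes, was in 3.03% to 3.94% of far exon peaks and 0.977% to 1.37% of far intron peaks, and the GC content differed between these sets. MEF2 letters CTAAAAATA were in at most 1.06% of far exon peaks and in 1.93% to 2.80% of far intron peaks. The AP-1 intervals of far exon and far intron peaks were apart in Quad and Sol and overlapped in EDL and Dia.

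Some far exon peaks lay within 500 bp of starts that the authors' TSS set did not hold. Of exon peaks over 1 kb from the authors' nearest TSS, 17.4% in EDL (13.6% to 22.1%), 17.1% in Quad (13.9% to 20.8%), 17.0% in Dia (12.0% to 23.4%) and 15.5% in Sol (11.7% to 20.2%) had a GENCODE transcript start within 500 bp. Intron peaks at that distance had one in 7.35% in EDL, 6.86% in Quad, 9.51% in Dia and 7.47% in Sol. Within 100 bp the exon shares were lower, between 6.34% in Sol and 8.48% in Dia, and those of introns between 2.55% in Quad and 3.68% in Dia. GENCODE lists many transcripts that begin inside genes, often incomplete ones, and how many such starts exons hold without a peak was not measured. In each list these exon peaks scored higher than the rest, with median percentiles of 47.6 against 32.97 in EDL, 48.0 against 38.2 in Quad, 45.4 against 34.6 in Sol and 51.5 against 28.1 in Dia. They were also open in all 4 muscles more often, in 43.4% against 28.7% in EDL, 26.9% against 16.9% in Quad, 38.6% against 30.0% in Sol and 64.3% against 48.9% in Dia. Intron peaks over 1 kb out with such a start within 500 bp differed from the rest in the same directions, with median percentiles of 52.5 against 38.3 and shares open in all 4 of 42.7% against 28.4% in EDL. The few 5' UTR peaks over 1 kb out with such a start were higher than the rest on both measures in EDL, Quad and Sol. In Dia, where they numbered 16 of 22, they were lower on both.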

How the data were processed

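The authors sequenced ATAC-seq libraries of 4 muscles, aligned reads to mm10 with Bowtie2, and used HOMER to call peaks of fixed width in each library and to annotate them; the labels call each library pooled. The deposited score is a signal, a tag count scaled by library size, per the file headers, and the deposited focus ratio is a fraction of tags. Versions of Bowtie2 and HOMER are left out here. Members were taken by the annotation column. Scores were ranked within a list. Lists were merged at an overlap of 1 bp. Exons, transcript starts and sequence came from RefSeq GRCm38.p6 and GENCODE vM21. Shares carry 95% Wilson intervals, differences Newcombe intervals and medians order-statistic intervals, with Python 3.11.15, scipy 1.17.1 and statsmodels 0.14.6; scripts were tested on simulated data.

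Named regions were, per list, the 3 highest-scored exon peaks, 5' UTR peaks and members found in no other list; the 8 genes with most exon-peak regions; the 8 best members open in all 4 lists and over 10 kb from a TSS; the 5 best members open in EDL and Quad alone and in Sol and Dia alone; and the members in gene lists. Some genes that this rule names are not reported here. Members and lists were chosen with earlier results of these data known. Alternatives were equal list lengths, autosomes and X only, annotation on the reference, distance to the named transcript, 50% reciprocal overlap, and members over 1 kb from a TSS.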

Additional observations from a re-analysis of the deposited data

How the results depend on the processing

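Each muscle had 1 list, so no replicate could be left out. No paired analysis was possible because each muscle is a single library and no result comes from a test. Limiting the lists to autosomes and X, placing peak centres on the reference annotation and measuring distance from the named transcript left all of the 44 values they touched inside the main 95% interval. When each list was shortened to its 20000 strongest peaks, 16 of 32 values left it. First exons then held 30.3% of exon peaks in EDL and 36.9% in Quad, and 32.5%, 41.3% and 37.0% of exon peaks in EDL, Quad and Sol lay within 1 kb of a TSS. Median percentiles became 31.2 in EDL and 35.9 in Quad for exon peaks and 53.2 and 55.5 for 5' UTR peaks. Exon peaks open in all 4 muscles became 44.9% in EDL, 38.1% in Quad, 41.2% in Dia and 42.7% in Sol, and 5' UTR peaks 76.1% in EDL, 64.1% in Quad and 62.7% in Dia. A reciprocal overlap of 50% gave 21.5%, 11.2%, 21.2% and 28.4% for exon peaks of EDL, Quad, Sol and Dia, and 46.9%, 34.3%, 44.1% and 42.7% for 5' UTR peaks. For members over 1 kb from a TSS the shares were 31.2% in EDL, 18.6% in Quad and 31.3% in Sol for exon peaks, and 64.3%, 45.7%, 73.9% and 77.3% for the few 5' UTR peaks of EDL, Quad, Sol and Dia. The 5' UTR peaks were shared more often than exon peaks in all 4 lists with shortened lists, autosomes and X, 50% overlap and members over 1 kb out, and ranked higher in all 4 under the first 2 of these, where rank was recomputed. The cause of these moves was not tested, beyond the smaller lists and stricter overlap that the settings impose. Depth limits a missing peak: it says that none was called at 25 to 36 tags or more.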
